A study of Mus musculus with 4 samples.

Results

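The 42 genes described here encode proteins that copy DNA in S phase: the MCM helicase and the factors that load and start it, polymerases and primase, the sliding clamp and its loader, enzymes of nucleotide supply, chromatin and repair factors at forks, and the E2F factors and E cyclins that control the programme. They were listed by symbol, by a rule that uses no measured value, although the list was drawn up with earlier results of these data known, and all 42 were found among the 32285 mouse genes of the matrices. Single-nucleus RNA sequencing had been made from whole hearts of wild-type mice at postnatal day 12. At postnatal day 7 the YAP5SA mice had received AAV9-cTnT-YAP5SA, a viral vector with an activated form of the transcriptional co-activator YAP under the cTnT promoter, which is active in cardiomyocytes. The control mice had been given saline, so virus and cargo cannot be told apart. Mothers were on a high-fat diet (HFD) or chow for 5 days, which gave 4 libraries: YAP5SA on chow, YAP5SA on HFD, control on chow and control on HFD. Each group was 1 library, and the sources used here do not say how many hearts went into it.

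Groups follow the sample titles. The treatment labels of 2 libraries disagree with their titles: HFD is named for YAP5SA on chow, and chow for control on HFD. If those labels hold, both YAP5SA libraries were on HFD and both controls on chow, there is no diet contrast, and vector and diet cannot be told apart. The libraries held 43.4 to 61.2 × 1e6 UMIs (unique molecular identifiers, counted transcripts), 6048 to 10009 nuclei were kept in each, and 11 to 34 barcodes were shared by any 2 of them. By Xist and Ddx3y the YAP5SA chow library was male and the other 3 female. Yap1 itself had 107 and 120.4 CPM (UMIs per 1e6 UMIs of the sum) in cardiomyocyte-like YAP5SA sums, against 136 and 128 CPM in control. Whether reads from the cargo are counted as Yap1 is not known, so this does not check the vector.

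Before S phase, ORC, Cdc6 and Cdt1 load the MCM hexamer (Mcm2 to Mcm7) onto origins. In S phase Cdc45 and GINS turn it into a running helicase, and polymerase alpha with primase, then polymerases delta and epsilon held by the clamp Pcna, make the new strands. E2F factors raise most of these genes at the G1 to S transition, and E2f7 and E2f8 lower them again. In the mouse heart most cardiomyocytes leave the cell cycle during the first postnatal week, while fibroblasts and endothelial cells go on dividing.

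Since E2F factors bind many of these genes, the promoters were searched for the letters of E2F sites. RefSeq promoters on GRCm38.p6, from 250 bases before to 50 bases after the start, were held for 33 of the 42 members, and where a gene had several the first listed was used. The search took both strands and 4 spellings of the site, TTTCCCGC, TTTGGCGC, TTTCGCGC and TTTGCCGC, of which TTTGGCGC and TTTCGCGC can overlap each other on opposite strands. At least 1 match stood in 13 of 33 members (39.4%), in 17 of 52 promoters of further replication genes, in 2 of 28 promoters of mitosis genes, and in 626 of all 27025 promoters (2.32%). The MCM promoters held are printed here, since they belong to 1 complex, with those of the 3 further members of lowest adjusted p in cardiomyocyte-like sums that had one. Each runs 5′ to 3′ on the gene's strand, with the matched E2F letters in capitals.
Mcm2 (chr6:88898731-88899030, minus strand): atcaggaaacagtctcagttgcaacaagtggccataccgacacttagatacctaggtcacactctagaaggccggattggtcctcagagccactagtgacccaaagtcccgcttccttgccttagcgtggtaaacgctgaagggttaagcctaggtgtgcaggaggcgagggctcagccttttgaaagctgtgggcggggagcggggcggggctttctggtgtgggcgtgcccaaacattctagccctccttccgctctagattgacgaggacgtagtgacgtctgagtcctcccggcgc
Mcm3 (chr1:20820263-20820562, minus strand): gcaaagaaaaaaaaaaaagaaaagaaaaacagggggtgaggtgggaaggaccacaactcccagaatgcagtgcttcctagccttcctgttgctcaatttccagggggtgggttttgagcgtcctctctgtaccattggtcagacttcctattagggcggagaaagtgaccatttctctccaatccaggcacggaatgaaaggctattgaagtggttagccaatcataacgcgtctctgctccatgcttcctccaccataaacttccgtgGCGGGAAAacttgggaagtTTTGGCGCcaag
Mcm5 (chr8:75109259-75109558, plus strand): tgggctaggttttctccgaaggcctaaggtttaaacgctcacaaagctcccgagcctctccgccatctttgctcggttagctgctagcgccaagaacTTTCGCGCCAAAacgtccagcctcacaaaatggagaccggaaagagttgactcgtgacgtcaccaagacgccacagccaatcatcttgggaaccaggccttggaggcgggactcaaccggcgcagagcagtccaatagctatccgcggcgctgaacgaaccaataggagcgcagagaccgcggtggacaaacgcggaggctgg
Mcm6 (chr1:128359656-128359955, minus strand): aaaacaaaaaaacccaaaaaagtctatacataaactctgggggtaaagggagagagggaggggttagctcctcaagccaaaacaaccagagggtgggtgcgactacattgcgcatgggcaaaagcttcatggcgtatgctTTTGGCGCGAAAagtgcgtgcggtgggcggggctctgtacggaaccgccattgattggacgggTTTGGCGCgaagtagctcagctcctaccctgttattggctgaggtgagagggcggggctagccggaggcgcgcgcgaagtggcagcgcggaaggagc
Mcm7 (chr5:138171834-138172133, minus strand): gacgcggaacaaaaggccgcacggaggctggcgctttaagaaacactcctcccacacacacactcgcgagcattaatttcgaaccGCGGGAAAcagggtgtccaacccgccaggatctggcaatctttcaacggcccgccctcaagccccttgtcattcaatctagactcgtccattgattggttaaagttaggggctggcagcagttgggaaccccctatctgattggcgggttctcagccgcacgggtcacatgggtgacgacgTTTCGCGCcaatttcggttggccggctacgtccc
Rfc5 (chr5:117388974-117389273, minus strand): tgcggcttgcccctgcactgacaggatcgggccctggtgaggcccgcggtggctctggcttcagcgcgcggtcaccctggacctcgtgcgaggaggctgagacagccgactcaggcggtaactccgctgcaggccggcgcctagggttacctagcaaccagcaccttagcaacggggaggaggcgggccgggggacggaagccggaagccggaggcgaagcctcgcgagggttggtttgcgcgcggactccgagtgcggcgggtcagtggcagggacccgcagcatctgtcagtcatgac
E2f7 (chr10:110745189-110745488, plus strand): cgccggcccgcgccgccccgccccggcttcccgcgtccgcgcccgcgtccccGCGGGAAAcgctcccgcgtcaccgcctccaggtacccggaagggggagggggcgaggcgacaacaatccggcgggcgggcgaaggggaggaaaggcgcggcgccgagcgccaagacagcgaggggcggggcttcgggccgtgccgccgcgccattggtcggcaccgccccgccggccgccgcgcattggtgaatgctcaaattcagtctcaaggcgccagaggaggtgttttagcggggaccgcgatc
Ccne1 (chr7:38107441-38107740, minus strand): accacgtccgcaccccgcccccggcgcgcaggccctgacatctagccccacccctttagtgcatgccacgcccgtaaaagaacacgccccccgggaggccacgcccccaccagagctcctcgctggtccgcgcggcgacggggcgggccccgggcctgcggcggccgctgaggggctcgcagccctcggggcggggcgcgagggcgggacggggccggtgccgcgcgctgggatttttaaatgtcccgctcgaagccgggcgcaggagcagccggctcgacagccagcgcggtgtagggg
Mcm6 had 3 matches and Mcm3, Mcm5 and Mcm7 had 2 each, whereas Mcm2, Rfc5 and Ccne1 had none of these letters in the window. E2f7 had 1.

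The members were abundant in different cells and moved in different directions. In fibroblast-like nuclei their summed UMIs came to 2322 and 2139 CPM in the YAP5SA libraries, against 1309.8 and 988 CPM in the control libraries. In cardiomyocyte-like nuclei, where the vector's promoter is active, the sums were 595 and 432 CPM in the YAP5SA libraries, against 453 and 326 CPM in the control libraries. Endothelial-like sums held 774 and 769.9 CPM in the YAP5SA libraries, against 1035 and 1208 CPM in the control libraries. In all other nuclei, which take in mural, macrophage, epicardial, Schwann and unnamed clusters, the sums were 1614 and 1522 CPM in the YAP5SA libraries, against 1012 and 1073 CPM in the control libraries. Unnamed clusters held most UMIs of these sums, with 5092737 of 7565589 and 7131261 of 10982546 in the YAP5SA libraries. In the control libraries they held 4446309 of 6578245 and 11326449 of 15426940. The highest sum was the fibroblast-like one in both YAP5SA libraries and in control on chow, and the endothelial-like one in control on HFD. Here and below, the chow library of each arm is given first and the HFD library second. The YAP5SA libraries were therefore higher on both diets in fibroblast-like, cardiomyocyte-like and other sums and lower on both in endothelial-like sums. As a log2 ratio of YAP5SA over control the summed level was 0.83 (95% interval 0.78 to 0.87) on chow and 1.11 (95% interval 1.08 to 1.15) on HFD in fibroblast-like sums. The same ratio was 0.39 (95% interval 0.36 to 0.43) and 0.41 (95% interval 0.37 to 0.45) in cardiomyocyte-like sums, -0.42 (95% interval -0.49 to -0.35) and -0.65 (95% interval -0.71 to -0.59) in endothelial-like sums, and 0.67 (95% interval 0.63 to 0.72) and 0.50 (95% interval 0.47 to 0.54) in the others. These intervals compare 1 library with 1 library and cover counting error only.

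A nucleus in S phase holds transcripts of several members at once, so nuclei with UMIs of at least 3 different members were counted after every nucleus had been thinned to 2000 UMIs. This count does not by itself place a nucleus in S phase. Of the cardiomyocyte-like and fibroblast-like nuclei so counted, 60.5% and 65.1% held Pola1, a long gene, and 5.45% and 5.40% held Mcm2. Fibroblast-like nuclei had the widest difference, at 42.8% and 39.1% in the YAP5SA libraries, against 18.1% and 13.2% in the control libraries. Among cardiomyocyte-like nuclei the share was 10.6% and 6.26% in the YAP5SA libraries, against 5.87% and 3.10% in the control libraries, of 4664, 4956, 3476 and 2967 nuclei in the same order. Endothelial-like nuclei gave 12.4% and 10.9% in the YAP5SA libraries, against 18.4% and 15.1% in the control libraries, and the other nuclei gave 30.5% and 32.9% in the YAP5SA libraries, against 21.1% and 21.9% in the control libraries. On both diets the YAP5SA share was higher than control in fibroblast-like nuclei, by 2.37-fold and 2.96-fold, and in cardiomyocyte-like nuclei, by 1.80-fold and 2.02-fold. In endothelial-like nuclei it was 0.670 and 0.720 times the control share. The exact 95% intervals of the YAP5SA and control shares did not overlap on either diet in fibroblast-like, cardiomyocyte-like and other nuclei. At 1000 UMIs those of cardiomyocyte-like nuclei on HFD did overlap, at 2.48 to 3.43% in YAP5SA and 1.49 to 2.52% in control. In endothelial-like nuclei the intervals on chow were 10.2 to 14.8% in YAP5SA and 15.4 to 21.8% in control. They overlapped with a second seed of the thinning, at 9.44 to 13.9% and 13.5 to 19.6%, and also at 4000 UMIs, for at least 2 members, with stricter filters and with cycle genes in the clustering. On HFD they were 8.87 to 13.1% in YAP5SA and 13.05 to 17.3% in control, which overlap. Without thinning, the cardiomyocyte-like shares were 21.5% and 16.2% in the YAP5SA libraries, against 15.1% and 12.1% in the control libraries, at median depths of 5002 and 4901 UMIs in YAP5SA, against 5795 and 6008 UMIs in control. No class of a growing heart is known to lack these genes, so free RNA cannot be gauged from one. The lowest share in a class was 3.10%, in control cardiomyocyte-like nuclei on HFD.

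**Figure D1:**
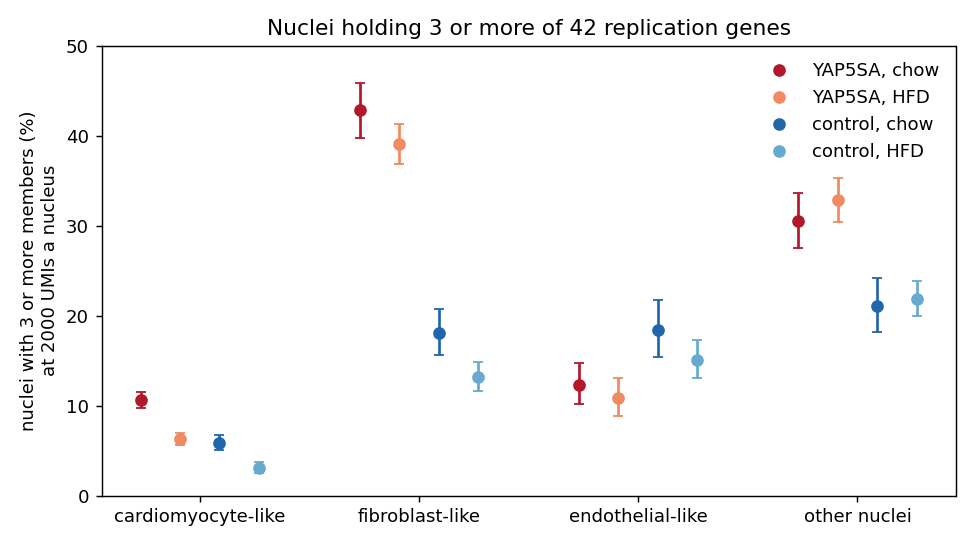
Share of nuclei (y axis, %) with UMIs of 3 or more of the 42 members after thinning to 2000 UMIs, by class (x axis) and library, with exact 95% intervals that cover counting error. Both YAP5SA points lie above both control points in fibroblast-like nuclei, at 42.8 and 39.1% against 18.1 and 13.2%, and below them in endothelial-like nuclei.

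Tests were made on UMIs summed per class and library, with the 2 YAP5SA libraries set against the 2 control libraries in edgeR's quasi-likelihood test and p-values adjusted over all genes of the class. Since nothing says how many animals stand behind a library, the p-values measure only the spread between these libraries, which differ in diet and, within YAP5SA, in sex. In cardiomyocyte-like sums 0 of 42 members rose and 0 fell at an adjusted p under 0.05, where 7.94% of all genes rose and 4.3% fell. At an unadjusted p under 0.05, 7 were higher in YAP5SA and 0 lower, and DESeq2 also called 0. The median log2 fold change of the members was 0.52, beside 0.04 over all 16894 genes. In fibroblast-like sums 26 of 42 members rose and 0 fell, where 7.48% of all genes rose and 6.21% fell. Their median was 0.92, beside 0.01 over 15004 genes. In endothelial-like sums 0 rose and 6 fell, where 1.37% of all genes fell and 0.79% rose, with a median of -0.60 beside 0.01. In the sum of other nuclei 0 rose and 0 fell, where 0.353% of all genes rose and 0.251% fell, although 23 members were higher at an unadjusted p under 0.05 and DESeq2 called 2. All 42 members passed the filter on low counts in each class.

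**Figure D2:**
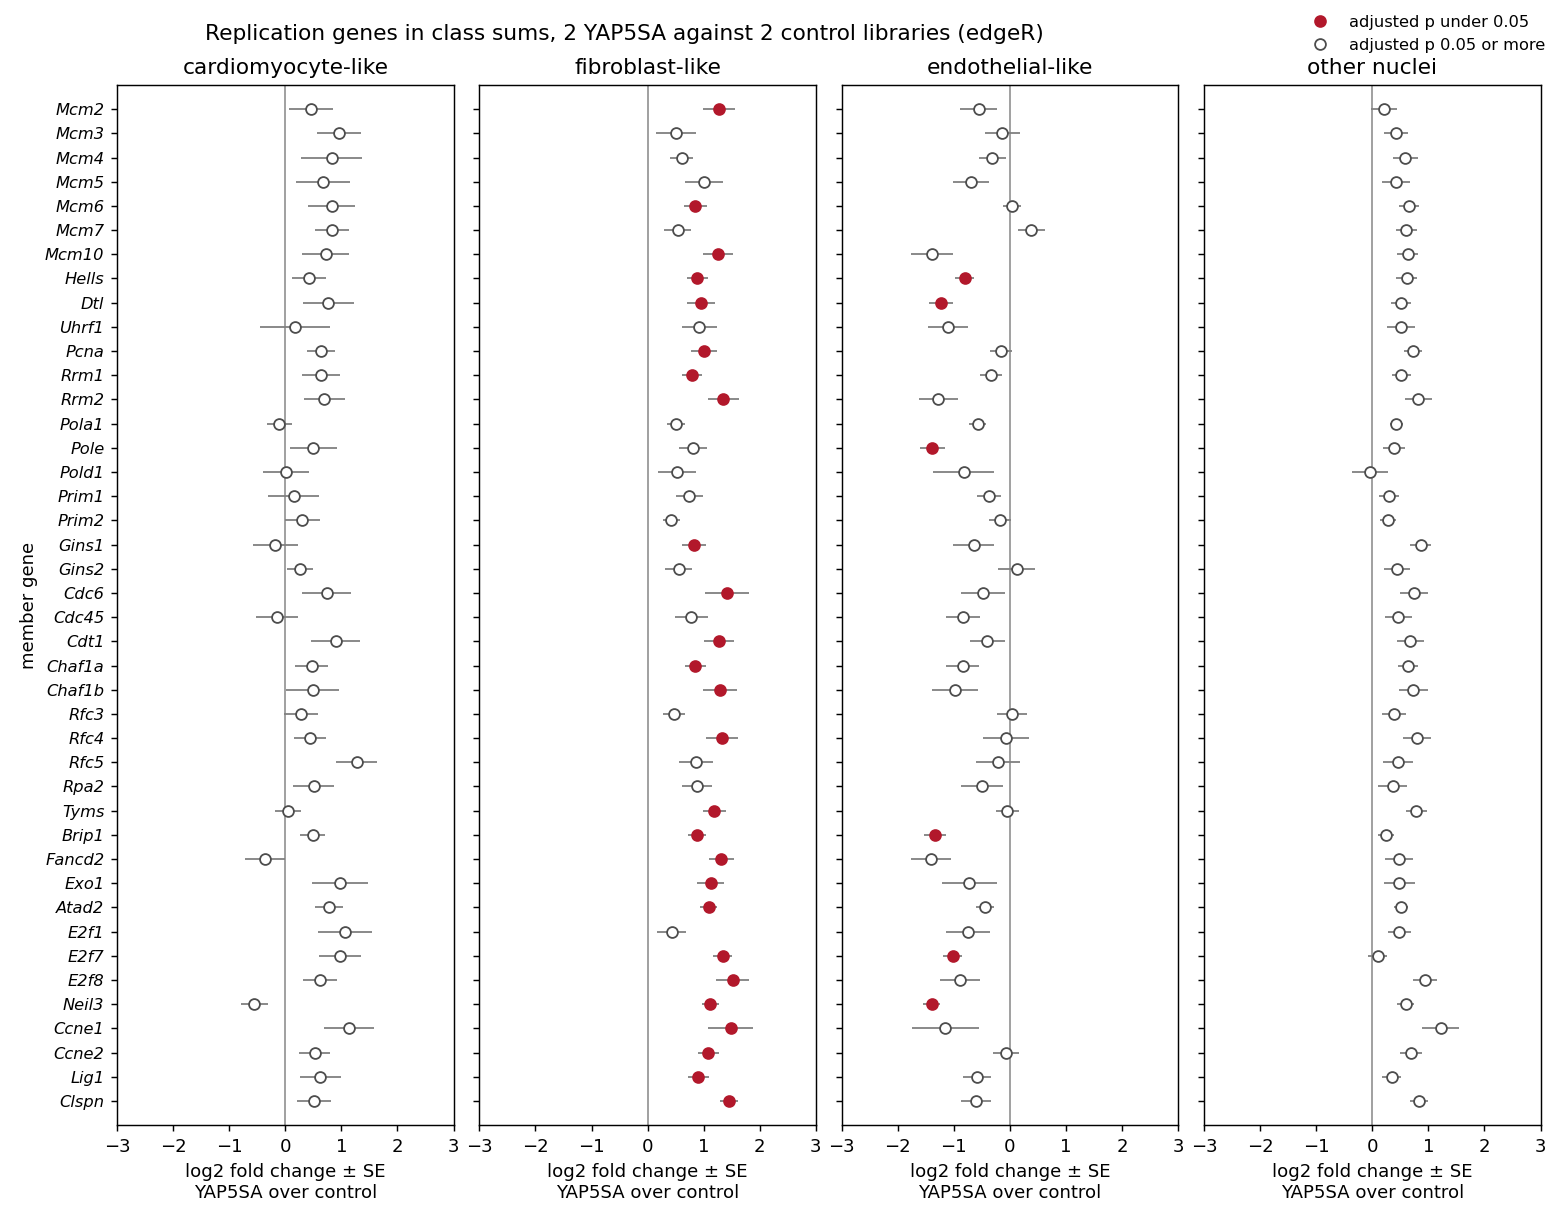
Log2 fold change of each member (y axis) in YAP5SA over control ± SE (x axis), in 4 class sums with 2 libraries an arm. Filled points passed an adjusted p under 0.05. All 42 fibroblast-like values lie above 0 and 26 are filled, while 38 of the 42 endothelial-like values lie below 0 and 6 are filled.

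Fibroblast-like nuclei gave the members that rose, and every role but the polymerases had some. Both licensing loaders rose. Cdc6, which opens the MCM ring with ORC at origins, had 20.3 and 17.8 CPM in the YAP5SA libraries, against 9.98 and 3.99 CPM in the control libraries (log2 fold change 1.42 ± 0.39 (SE), edgeR adjusted p = 0.0451). Its partner Cdt1 had 29.0 and 20.3 CPM in YAP5SA, against 10.9 and 8.09 CPM in control (log2 fold change 1.27 ± 0.27 (SE), edgeR adjusted p = 0.0158). For both genes the 2 YAP5SA libraries lay above the 2 control libraries. Of the 6 MCM subunits only Mcm2 and Mcm6 passed the test. Mcm2 (chr6:88883474-88898780, mm10) had 16.8 and 13.9 CPM in YAP5SA, against 6.73 and 5.13 CPM in control (log2 fold change 1.27 ± 0.28 (SE), edgeR adjusted p = 0.0193), and Mcm6 (chr1:128331590-128359664) had 71.2 and 60.6 CPM in YAP5SA, against 39.9 and 28.2 CPM in control (log2 fold change 0.85 ± 0.20 (SE), edgeR adjusted p = 0.0244). The log2 fold changes of Mcm3, Mcm4, Mcm5 and Mcm7 were 0.51 ± 0.36, 0.60 ± 0.21, 1.005 ± 0.35 and 0.54 ± 0.24 (SE), with edgeR adjusted p between 0.0932 and 0.40. The hexamer's 6 genes thus pointed the same way but did not all pass, and together they summed to 176 and 156 CPM in YAP5SA, against 110.5 and 71.8 CPM in control.

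Among the factors that start the helicase, Mcm10, which binds it as forks fire, had 29.6 and 24.1 CPM in YAP5SA, against 13.2 and 8.09 CPM in control (log2 fold change 1.25 ± 0.27 (SE), edgeR adjusted p = 0.0167). Gins1, a subunit of the GINS complex, had 22.8 and 20.6 CPM in YAP5SA, against 10.7 and 11.6 CPM in control (log2 fold change 0.82 ± 0.22 (SE), edgeR adjusted p = 0.0358). Gins2 and Cdc45 had log2 fold changes of 0.55 ± 0.25 and 0.78 ± 0.29 (SE) and did not pass (edgeR adjusted p = 0.174 and 0.116). None of the 5 polymerase and primase genes Pola1, Pole, Pold1, Prim1 and Prim2 passed, with log2 fold changes from 0.42 to 0.82.

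The machinery that rides behind the helicase was mixed. Pcna, the sliding clamp, had 47.0 and 44.4 CPM in YAP5SA, against 26.0 and 16.6 CPM in control (log2 fold change 1.01 ± 0.22 (SE), edgeR adjusted p = 0.0189). Rfc4, a subunit of the clamp loader, had 14.9 and 17.9 CPM in YAP5SA, against 7.43 and 5.02 CPM in control (log2 fold change 1.32 ± 0.29 (SE), edgeR adjusted p = 0.0161), while the loader subunits Rfc3 and Rfc5 had log2 fold changes of 0.47 ± 0.20 and 0.86 ± 0.30 (SE) and edgeR adjusted p of 0.157 and 0.0940. Lig1, the ligase that joins Okazaki fragments, had 44.3 and 41.9 CPM in YAP5SA, against 22.7 and 19.7 CPM in control (log2 fold change 0.91 ± 0.18 (SE), edgeR adjusted p = 0.0115). All 3 nucleotide supply genes rose: Rrm1, the large subunit of ribonucleotide reductase, with 51.1 and 56.5 CPM in YAP5SA, against 32.0 and 25.7 CPM in control (log2 fold change 0.79 ± 0.18 (SE), edgeR adjusted p = 0.0187). Rrm2, its small subunit, had 18.2 and 19.2 CPM in YAP5SA, against 8.59 and 5.36 CPM in control (log2 fold change 1.35 ± 0.28 (SE), edgeR adjusted p = 0.0141), and Tyms, which makes thymidylate, had 89.8 and 78.2 CPM in YAP5SA, against 41.3 and 27.4 CPM in control (log2 fold change 1.19 ± 0.21 (SE), edgeR adjusted p = 0.00751). Each of these genes was higher in both YAP5SA libraries than in both controls.

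On the chromatin side, Atad2, a bromodomain ATPase of newly made chromatin, had 207 and 201 CPM in YAP5SA, against 99.3 and 78.1 CPM in control (log2 fold change 1.09 ± 0.15 (SE), edgeR adjusted p = 0.00260). Hells, a helicase needed for DNA methylation, had 135 and 101 CPM in YAP5SA, against 63.6 and 54.4 CPM in control (log2 fold change 0.89 ± 0.19 (SE), edgeR adjusted p = 0.0147). The CAF-1 subunits that put histones on new DNA both rose, Chaf1a with 33.9 and 33.2 CPM in YAP5SA, against 18.3 and 16.2 CPM in control (log2 fold change 0.85 ± 0.19 (SE), edgeR adjusted p = 0.0182) and Chaf1b with 14.5 and 14.6 CPM in YAP5SA, against 6.96 and 4.33 CPM in control (log2 fold change 1.30 ± 0.30 (SE), edgeR adjusted p = 0.0224). Uhrf1, which guides maintenance methylation, had a log2 fold change of 0.92 ± 0.32 (SE) and did not pass (edgeR adjusted p = 0.0978). The checkpoint mediator Clspn (chr4:126556935-126593903) had the lowest adjusted p of the members, at 63.3 and 64.9 CPM in YAP5SA, against 22.7 and 20.6 CPM in control (log2 fold change 1.45 ± 0.17 (SE), edgeR adjusted p = 0.00117). Dtl, which directs the destruction of Cdt1 in S phase, had 77.2 and 71.5 CPM in YAP5SA, against 45.7 and 26.1 CPM in control (log2 fold change 0.96 ± 0.25 (SE), edgeR adjusted p = 0.0378).

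All 4 repair genes rose. Neil3 (chr8:53586867-53639065), a DNA glycosylase, had 136 and 141 CPM in YAP5SA, against 65.2 and 53.1 CPM in control (log2 fold change 1.11 ± 0.15 (SE), edgeR adjusted p = 0.00230). Brip1, a helicase that works with Brca1, had 103 and 98.3 CPM in YAP5SA, against 56.4 and 45.0 CPM in control (log2 fold change 0.88 ± 0.16 (SE), edgeR adjusted p = 0.00872). Fancd2, of the Fanconi crosslink pathway, had 28.1 and 29.4 CPM in YAP5SA, against 12.5 and 9.23 CPM in control (log2 fold change 1.31 ± 0.22 (SE), edgeR adjusted p = 0.00569), and the nuclease Exo1 had 24.8 and 19.4 CPM in YAP5SA, against 9.75 and 8.89 CPM in control (log2 fold change 1.12 ± 0.24 (SE), edgeR adjusted p = 0.0160). The repressive E2F factors and both E cyclins rose as well. E2f7 (chr10:110745439-110787384) had 57.3 and 56.8 CPM in YAP5SA, against 22.7 and 19.2 CPM in control (log2 fold change 1.34 ± 0.17 (SE), edgeR adjusted p = 0.00194), and E2f8 had 19.4 and 24.2 CPM in YAP5SA, against 9.28 and 5.36 CPM in control (log2 fold change 1.52 ± 0.29 (SE), edgeR adjusted p = 0.0101). Ccne1 had 11.6 and 11.0 CPM in YAP5SA, against 5.57 and 2.39 CPM in control (log2 fold change 1.48 ± 0.40 (SE), edgeR adjusted p = 0.0377) and Ccne2 40.8 and 49.9 CPM in YAP5SA, against 20.7 and 18.9 CPM in control (log2 fold change 1.08 ± 0.18 (SE), edgeR adjusted p = 0.00563). The activator E2f1 had a log2 fold change of 0.43 ± 0.26 (SE) and did not pass (edgeR adjusted p = 0.307).

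**Figure D3:**
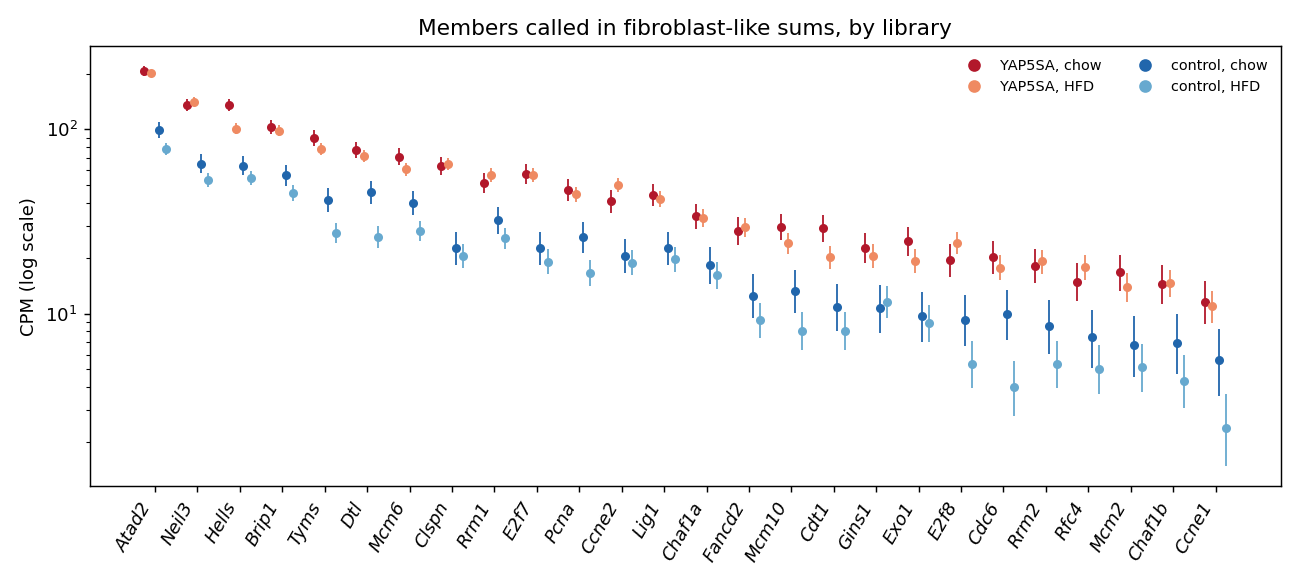
CPM (y axis, log scale) in each of the 4 libraries for the 26 members that rose in fibroblast-like sums (x axis, by mean CPM), with exact 95% Poisson intervals. The 2 YAP5SA points of every gene lie above its 2 control points, as for Atad2 at 207 and 201 CPM against 99.3 and 78.1 CPM.

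Over all 42 members both YAP5SA libraries lay above both control libraries for 41 in fibroblast-like sums, all but Mcm3, while this held for 38.6% of all genes, and below them for 0, where all genes gave 20.8%. In the sum of other nuclei, with most UMIs from unnamed clusters, both lay above for 41 (all genes 33.7%) and below for 0 (all genes 18.8%). Of the members with an E2F match in the promoter, 7 of 13 passed (median log2 fold change 0.89) and of those without, 14 of 20 passed (median 0.96), a description with no test. The number of calls changed when a library or 1 cluster was left out. Without the control HFD library 4 members passed (Atad2, Clspn, E2f7 and Neil3), without the YAP5SA chow library 14 and without the YAP5SA HFD library 17. Cluster 12, with Tnc, Col8a1 and Meox1 among its leading genes, held 86.0 and 79.9% of the fibroblast-like nuclei of the YAP5SA libraries, against 8.46 and 7.35% of those of the controls, which lay mostly in clusters 11 and 13. Without cluster 12, 0 members passed, where 0.252% of all genes rose. That left 158 and 424 fibroblast-like nuclei in YAP5SA, against 887 and 1688 in control. Since this takes most YAP5SA nuclei and few control nuclei, nothing is read from the count of 0. Within cluster 12 the share of nuclei with 3 or more members was 45.4% and 44.8% in YAP5SA, against 55.7% and 51.2% in control, so it was not higher in YAP5SA there. Within cluster 11 it was 29.9% and 18.1% in YAP5SA, against 14.9% and 11.6% in control, and within cluster 13 12.5% and 12.6% in YAP5SA, against 13.7% and 8.56% in control. The clustering had left out all 42 members.

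Other cells' markers also differed between the arms in these sums, some lower and some higher in YAP5SA. The 14 cardiomyocyte markers, all detected, summed in fibroblast-like nuclei to 1107 and 1365 CPM in YAP5SA, against 2098 and 2409 CPM in control. The 10 endothelial markers, all detected, came to 241 and 303 CPM in YAP5SA, against 446 and 621 CPM in control. Epicardial markers came to 21.5 and 10.7 CPM in YAP5SA, against 37.8 and 36.4 CPM in control. Schwann markers came to 117 and 157 CPM in YAP5SA, against 292 and 205 CPM in control. Some epicardial and Schwann markers were at 0. The 7 pericyte markers, of which 1 was at 0 in control on chow, came to 329 and 329 CPM in YAP5SA, against 248 and 199 CPM in control. The 6 smooth muscle markers, all detected, came to 219 and 92.2 CPM in YAP5SA, against 52.7 and 55.0 CPM in control. The 9 macrophage markers, of which 1 was at 0 in YAP5SA on chow, came to 30.8 and 53.4 CPM in YAP5SA, against 19.5 and 28.7 CPM in control. Their part in the result was not tested.

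Endothelial-like nuclei, which take in blood vessel, endocardial and lymphatic clusters, went the other way. Here 6 members fell, of 5 roles. Neil3 had 32.0 and 31.2 CPM in the YAP5SA libraries, against 80.4 and 82.3 CPM in the control libraries (log2 fold change -1.39 ± 0.15 (SE), edgeR adjusted p = 0.00789). Brip1 had 25.1 and 19.7 CPM in YAP5SA, against 53.6 and 57.4 CPM in control (log2 fold change -1.33 ± 0.19 (SE), edgeR adjusted p = 0.0157). Pole, the catalytic subunit of the leading-strand polymerase epsilon, had 11.2 and 10.4 CPM in YAP5SA, against 24.7 and 30.4 CPM in control (log2 fold change -1.38 ± 0.23 (SE), edgeR adjusted p = 0.0234). For these genes both YAP5SA libraries lay below both controls. Dtl had 12.5 and 14.8 CPM in YAP5SA, against 28.0 and 34.4 CPM in control (log2 fold change -1.23 ± 0.22 (SE), edgeR adjusted p = 0.0278), E2f7 had 24.3 and 29.3 CPM in YAP5SA, against 51.8 and 54.4 CPM in control (log2 fold change -1.02 ± 0.17 (SE), edgeR adjusted p = 0.0231), and Hells had 33.9 and 32.3 CPM in YAP5SA, against 53.9 and 59.7 CPM in control (log2 fold change -0.81 ± 0.16 (SE), edgeR adjusted p = 0.0436). The 6 MCM subunits did not all share this direction, and none passed. Their log2 fold changes ran from -0.70 ± 0.32 for Mcm5 to 0.38 ± 0.25 for Mcm7 (SE), with a median of -0.22. Both YAP5SA libraries lay below both control libraries for 26 of 42 members, where this held for 21.1% of all genes, and above them for 1, Mcm6 (all genes 25.3%). Brip1, E2f7, Neil3 and Pole passed whichever library was left out, while without the control HFD library Dtl and Hells did not. With stricter filters, which keep nuclei of at least 1000 genes and at most 1% mitochondrial UMIs, 0 of the 28 members still tested fell. Under these filters 295 and 401 nuclei were endothelial-like in YAP5SA, against 146 and 332 in control. The largest endothelial-like cluster, endocardial cluster 0, had a median of 2.34% mitochondrial UMIs. The summed log2 ratio with stricter filters was 0.038 on chow and -0.72 on HFD. The share of nuclei with 3 or more members was then 14.6% and 11.25% in YAP5SA, against 20.2% and 17.6% in control. With cycle genes allowed in the clustering 2 fell, Brip1 and Pole. The 14 cardiomyocyte markers, all detected, summed in endothelial-like nuclei to 1275 and 1563 CPM in YAP5SA, against 3923 and 2802 CPM in control, and their part in the result was not tested. By type, the share of nuclei with 3 or more members in blood vessel endothelial-like nuclei was 13.1% and 11.9% in YAP5SA, against 21.6% and 16.7% in control. In endocardial-like nuclei it was 11.3% and 9.85% in YAP5SA, against 12.8% and 13.5% in control. The makeup of the class also differed between the arms. Endocardial-like nuclei were 577 of 1003 and 599 of 1059 endothelial-like nuclei in YAP5SA, against 231 of 666 and 559 of 1258 in control. The part of this makeup in the result was not tested.

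In cardiomyocyte-like nuclei no member passed, but most pointed up, with 38 of 42 higher on chow (all genes 48.4%) and 36 higher on HFD (all genes 63.8%). On HFD the median of all genes was itself shifted by 0.23 on the log2 CPM scale, and the members' median was 0.63. Both YAP5SA libraries lay above both controls for 23 members, where this held for 35.5% of all genes, and below them for 1, Neil3 (all genes 23.7%). The lowest adjusted p were those of Rfc5, at a log2 fold change of 1.27 ± 0.36 (SE, edgeR adjusted p = 0.0705), and Atad2. The MCM genes lay between 0.46 and 0.96, and summed to 53.8 and 39.9 CPM in YAP5SA, against 32.8 and 19.3 CPM in control. The polymerase and primase genes lay between -0.10 and 0.50 and summed to 185 and 123 CPM in YAP5SA, against 159 and 128 CPM in control.

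The 10 members with most UMIs in cardiomyocyte-like sums are given in every library. Nuclear UMIs include unspliced RNA, so counts grow with gene length and are not compared between genes. Pola1 (chrX:93304767-93632155, 327 kb), the catalytic subunit of polymerase alpha, had 106 and 78.4 CPM in YAP5SA, against 102 and 88.2 CPM in control (log2 fold change -0.10 ± 0.22 (SE), edgeR adjusted p = 0.805). Prim2 (chr1:33453810-33669795, 216 kb), the large primase subunit, had 49.6 and 29.2 CPM in YAP5SA, against 34.9 and 26.9 CPM in control (log2 fold change 0.30 ± 0.31 (SE), edgeR adjusted p = 0.570). The YAP5SA and control values of both genes overlapped. Atad2 had 59.6 and 48.8 CPM in YAP5SA, against 36.3 and 24.3 CPM in control (log2 fold change 0.78 ± 0.25 (SE), edgeR adjusted p = 0.0908), with no overlap. Hells had 38.0 and 24.9 CPM in YAP5SA, against 27.1 and 18.0 CPM in control (log2 fold change 0.43 ± 0.30 (SE), edgeR adjusted p = 0.399) and Neil3 17.2 and 14.4 CPM in YAP5SA, against 26.0 and 18.6 CPM in control (log2 fold change -0.56 ± 0.24 (SE), edgeR adjusted p = 0.182). Neil3 was the member with the lowest log2 fold change here, in contrast to its rise in fibroblast-like sums. Rrm1 had 25.7 and 15.5 CPM in YAP5SA, against 15.5 and 10.2 CPM in control (log2 fold change 0.63 ± 0.34 (SE), edgeR adjusted p = 0.263), and Tyms had 15.2 and 12.5 CPM in YAP5SA, against 14.3 and 11.4 CPM in control (log2 fold change 0.05 ± 0.24 (SE), edgeR adjusted p = 0.919). Mcm6 had 21.2 and 11.0 CPM in YAP5SA, against 11.4 and 6.24 CPM in control (log2 fold change 0.83 ± 0.42 (SE), edgeR adjusted p = 0.247), Dtl had 20.3 and 10.4 CPM in YAP5SA, against 11.9 and 5.65 CPM in control (log2 fold change 0.77 ± 0.45 (SE), edgeR adjusted p = 0.311) and Ccne2 had 10.6 and 16.9 CPM in YAP5SA, against 10.8 and 7.36 CPM in control (log2 fold change 0.52 ± 0.28 (SE), edgeR adjusted p = 0.271). In Prim2, Atad2, Hells, Rrm1, Tyms, Mcm6 and Dtl the YAP5SA chow library was highest and the control HFD library lowest.

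Atad2 and Mcm6, each taken alone, were found in a minority of the thinned nuclei of both classes. At 2000 UMIs the share of cardiomyocyte-like nuclei with Atad2 was 7.91% and 6.32% in the YAP5SA libraries, against 4.52% and 3.40% in the control libraries. The share of fibroblast-like nuclei with Atad2 was 25.0% and 25.3% in the YAP5SA libraries, against 11.7% and 10.4% in the control libraries. For Mcm6 the cardiomyocyte-like shares were 3.92% and 2.10% in the YAP5SA libraries, against 2.16% and 1.11% in the control libraries, and the fibroblast-like shares were 12.2% and 10.7% in the YAP5SA libraries, against 6.21% and 4.84% in the control libraries. Unthinned, the cardiomyocyte-like shares for Mcm6 were 8.78% and 5.07% in the YAP5SA libraries, against 5.22% and 3.35% in the control libraries. Both genes were thus found in a larger share of fibroblast-like than of cardiomyocyte-like nuclei in each of the 4 libraries.

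The cardiomyocyte-like clusters differed widely in these genes. Clusters 5 and 8, which were wholly YAP5SA, held 26.8 and 14.1%, and 19.97 and 10.8%, of the cardiomyocyte-like nuclei of the YAP5SA libraries. In them 12.99 and 12.7% of cluster 5 and 12.1 and 10.2% of cluster 8 had 3 or more members. Cluster 7, led by Art1 and 94.6% YAP5SA, held 40.5% of the cardiomyocyte-like nuclei of YAP5SA on HFD, and 0.798% of these had 3 or more members. Cluster 2, also over 90% YAP5SA, held 1047 of 4781 and 880 of 5070 cardiomyocyte-like nuclei of the YAP5SA libraries. Its share with 3 or more members is not given here. Most control nuclei lay in cluster 3, led by Myh7b, where the share was 1.35% and 0.601% in YAP5SA, against 2.54% and 0.635% in control, and in cluster 6, with Kcnn2 and Ppargc1a among its leading genes, where it was 2.16% and 1.28% in YAP5SA, against 8.11% and 2.59% in control. In both clusters the YAP5SA shares were no higher than the highest control share. Cluster 10, led by the mitosis genes Ect2, Anln and Top2a, held 5.15 and 3.12% of cardiomyocyte-like nuclei in YAP5SA, against 3.44 and 2.39% in control, and in it the share was 45.9% and 62.4% in YAP5SA, against 51.6% and 51.4% in control. Leaving out the clusters over 90% YAP5SA (2, 5, 7 and 8) kept 25.8 and 17.2% of the cardiomyocyte-like nuclei in YAP5SA, against 95.9 and 98.2% in control. Cluster 10 then made up 19.97 and 18.1% of those left in YAP5SA, against 3.59 and 2.43% in control. In that fit 15 members rose, where 7.66% of all genes rose, and since the choice of clusters itself raises the share of cluster 10 more in YAP5SA than in control, nothing is read from this count. In the sums of all cardiomyocyte-like nuclei the 14 cardiomyocyte markers came to 33518 and 35372 CPM in YAP5SA, against 53376 and 56216 CPM in control. The 7 endocardial markers, all detected, came to 141 and 102 CPM in YAP5SA, against 25.1 and 39.5 CPM in control. The 9 macrophage markers came to 22.9 and 46.8 CPM in YAP5SA, against 10.7 and 19.6 CPM in control, the 8 epicardial markers to 26.3 and 18.6 CPM in YAP5SA, against 13.2 and 11.9 CPM in control, and the 7 pericyte markers to 158 and 224 CPM in YAP5SA, against 446 and 411 CPM in control, each with all markers detected. Their part in the result was not tested.

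The remaining cell types were small, and each library gave few nuclei. In macrophage-like nuclei the share with 3 or more members was 48.0% and 57.6% in YAP5SA, against 20.5% and 39.2% in control, of 148, 417, 88 and 153 nuclei in the order used throughout. Both YAP5SA shares exceeded both control shares. Pericyte-like nuclei had 31.8% and 19.8% in YAP5SA, against 30.3% and 30.1% in control, smooth muscle-like nuclei 11.4% and 3.33% in YAP5SA, against 15.4% and 17.8% in control, and epicardial-like nuclei 12.1% and 8.54% in YAP5SA, against 10.3% and 11.7% in control. In none of these 3 types did both YAP5SA libraries exceed both controls. In Schwann-like nuclei they did, at 52.9% and 36.4% in YAP5SA, against 25.0% and 19.4% in control, of only 17, 22, 8 and 31 nuclei. In lymphatic endothelial-like nuclei the shares were 25.0% and 17.1% in YAP5SA, against 25.0% and 14.9% in control. Unnamed clusters had 37.8% and 30.6% in YAP5SA, against 21.1% and 20.9% in control. Their largest, cluster 15, had a median of 11532 UMIs a nucleus and leading genes of several cell types, and the part of doublets in it was not tested.

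**Figure D4:**
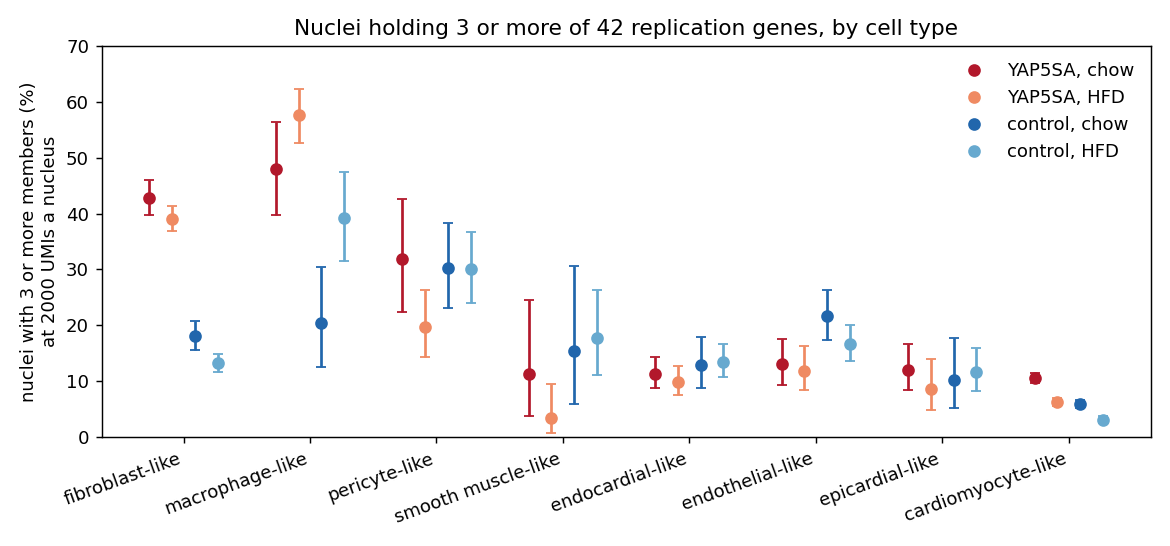
Share of nuclei (y axis, %) with 3 or more members at 2000 UMIs by cell type (x axis) and library, with exact 95% intervals. Macrophage-like nuclei reach 48.0 and 57.6% in YAP5SA, against 20.5 and 39.2% in control.

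Whether the YAP5SA effect differed between classes was tested in 1 model with a term for class by arm and the library as a block, a fit chosen after the data had been seen. The effect was higher in fibroblast-like than in endothelial-like sums for 31 of 42 members and lower for 0, where it was higher for 4.85% of all genes and lower for 4.26%. Neil3 had a difference in log2 fold change of 2.50 ± 0.16 (SE), edgeR adjusted p = 2.54e-05, and E2f7 one of 2.35 ± 0.20 (SE), edgeR adjusted p = 9.14e-05. Brip1 and Hells also passed, with 2.23 ± 0.20 (SE), edgeR adjusted p = 1.36e-04, and 1.68 ± 0.18 (SE), edgeR adjusted p = 4.19e-04. The effect was higher in cardiomyocyte-like than in endothelial-like sums for 6 members (Atad2, Brip1, E2f7, Hells, Pole and Rrm2), where it was higher for 5.58% of all genes. Between fibroblast-like and cardiomyocyte-like sums, the effect was higher in the former for 5 members (Clspn, Fancd2, Neil3, Pola1 and Tyms), where it was higher for 4.76% of all genes. In neither of these was the effect lower for any member, where it was lower for 2.11% and 8.1% of all genes. For the other members a difference between fibroblast-like and cardiomyocyte-like sums was not detected.

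The members were set beside a list of 66 further replication genes and one of 30 mitosis genes. In fibroblast-like sums 24 of 66 replication genes rose and 0 fell, where 7.48% of all genes rose and 6.21% fell. Among those that rose were Dbf4, which activates the Cdc7 kinase, with a log2 fold change of 1.39 ± 0.19 (SE, edgeR adjusted p = 0.00230), and Blm, the Bloom syndrome helicase, with 1.11 ± 0.18 (SE, edgeR adjusted p = 0.00490). Of the mitosis genes 29 of 30 rose, among them Top2a, which untangles DNA before division, with 1.62 ± 0.14 and Hmmr, a spindle protein, with 1.98 ± 0.18. Their summed level was 2826 and 3178 CPM in the YAP5SA libraries, against 1069 and 951 CPM in the control libraries. In endothelial-like sums 1 of 65 replication genes tested fell (Brca1, -1.04 ± 0.20), a share near the 1.37% of all genes that fell. Of the mitosis genes 20 of 30 fell there, Mki67, a marker of dividing cells, with a log2 fold change of -1.18 ± 0.15. In cardiomyocyte-like sums 0 of 66 replication genes and 1 of 30 mitosis genes rose, where 7.94% of all genes rose. The 1 that rose was Diaph3, a formin of the dividing cell's cortex, with 1.64 ± 0.31. The median log2 fold change of the mitosis genes there was 0.03, against 0.52 for the members. In CPM, the summed level of the mitosis genes was higher in YAP5SA on each diet. It was 865 and 611 CPM in the YAP5SA libraries, against 648 and 515 CPM in the control libraries. On this CPM scale, which lacks the scaling of the test, the median log2 fold of all genes was -0.03 on chow and 0.23 on HFD. Nuclei with 3 or more mitosis genes made up 7.57% and 4.28% in YAP5SA, against 4.17% and 3.10% in control.

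Nuclei with several members held mitosis transcripts more often than nuclei with none. Among cardiomyocyte-like nuclei with 3 or more members, the share that also held a UMI of the 30 mitosis genes was 75.1% and 73.9% in the YAP5SA libraries, against 70.1% and 81.5% in the control libraries. Among those with no member the shares were 20.6% and 20.01% in the YAP5SA libraries, against 13.4% and 13.5% in the control libraries. In fibroblast-like nuclei with 3 or more members the shares were 81.3% and 83.0% in the YAP5SA libraries, against 64.5% and 63.8% in the control libraries. The MCM subunits occurred together. Over the 4 libraries, at 2000 UMIs, another subunit was found in 33.6% of the 116 cardiomyocyte-like nuclei with Mcm3 and in 6.10% of those without it. In fibroblast-like nuclei these shares were 47.2% of 123 and 17.1%. Mcm3 was the subunit with the highest share in both classes. For Mcm7, the lowest in cardiomyocyte-like nuclei, the shares there were 12.6% of 333 with it and 4.81% without it. In fibroblast-like nuclei those for Mcm7 were 28.4% of 218 and 15.7%.

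Between diets, as the titles give them, cardiomyocyte-like nuclei had less of these genes on HFD in both arms. The summed log2 ratio of HFD over chow was -0.46 (95% interval -0.49 to -0.43) in YAP5SA and -0.48 (95% interval -0.52 to -0.43) in control. In YAP5SA 38 of 42 members were lower on HFD, where 37.1% of all genes were lower. In control 41 were lower, where 59.1% of all genes were. Without the clusters over 90% YAP5SA, which removes most YAP5SA nuclei and few control nuclei, the ratio in YAP5SA turned to 0.26. Mcm6 had a log2 fold of -0.95 (-1.15 to -0.75) in YAP5SA and -0.87 (-1.19 to -0.57) in control. Atad2 had -0.29 (-0.39 to -0.18) in YAP5SA and -0.58 (-0.74 to -0.42) in control. The ratio was -0.12 (95% interval -0.15 to -0.08) and -0.41 (95% interval -0.45 to -0.36) in fibroblast-like sums of YAP5SA and control, -0.01 (95% interval -0.08 to 0.07) and 0.22 (95% interval 0.16 to 0.28) in endothelial-like sums, and -0.08 (95% interval -0.12 to -0.05) and 0.08 (95% interval 0.04 to 0.13) in other nuclei. Fibroblast-like members were lower on HFD for 29 of 42 in YAP5SA and 40 in control (all genes 43.9 and 53.3%). Endothelial-like members were higher on HFD for 22 in YAP5SA and 31 in control (all genes 59.6 and 49.9%), and in other nuclei for 13 and 28 (all genes 55.1 and 51.6%). With 1 library a group these are differences between libraries, and in YAP5SA the chow library was also the male one.

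**Figure D5:**
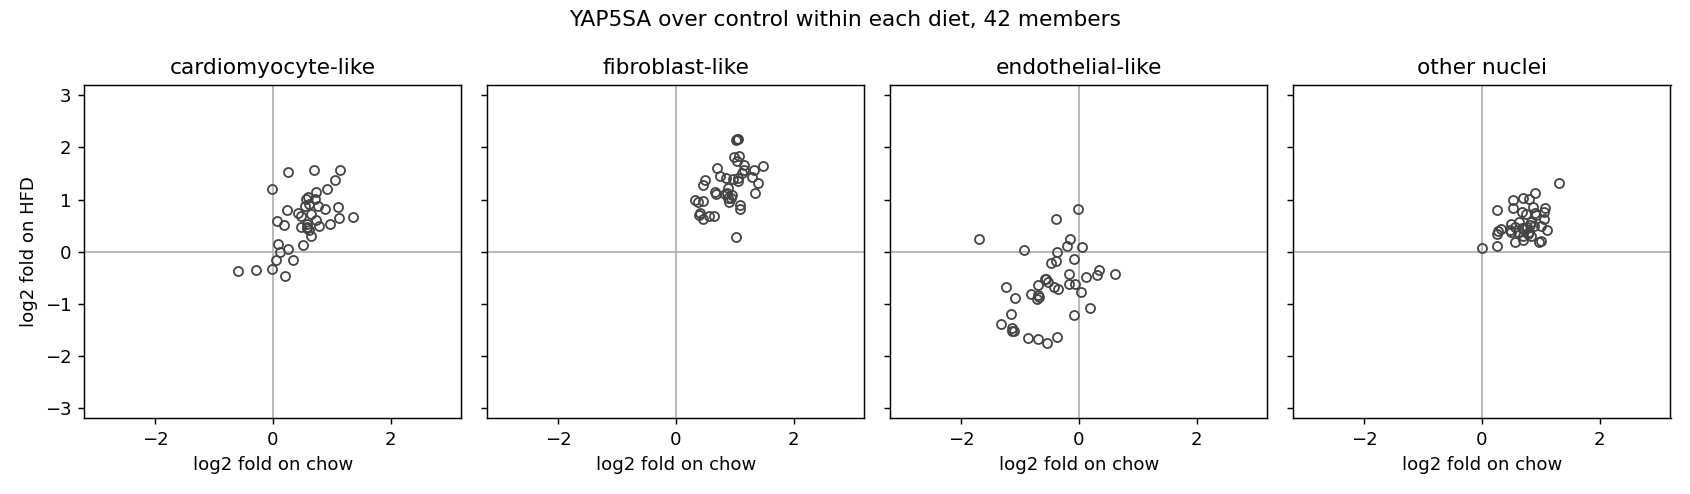
Log2 fold of YAP5SA over control for each of the 42 members on chow (x axis) and on HFD (y axis), by class, each from 1 library against 1 library. All 42 fibroblast-like points lie above 0 on both diets, and 35 and 35 endothelial-like points lie below 0 on chow and on HFD.

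Within each diet the fibroblast-like folds were 0.33 to 1.47 on chow and 0.28 to 2.17 on HFD on the log2 scale, and all 42 members were above 0 on both, where 57.1 and 62.1% of all genes were. For Clspn the fold was 1.47 (1.14 to 1.82) on chow and 1.65 (1.41 to 1.90) on HFD. In the sum of other nuclei, with most UMIs from unnamed clusters, all 42 members were above 0 on both diets as well (all genes 56.6 and 60.2%). Endothelial-like folds were below 0 for 35 members on chow and 35 on HFD, where 50.5 and 43.2% of all genes were. Neil3 had -1.33 (-1.65 to -1.01) on chow and -1.39 (-1.71 to -1.10) on HFD. For cardiomyocyte-like nuclei Atad2 had 0.72 (0.60 to 0.84) on chow and 1.004 (0.86 to 1.16) on HFD, whereas Neil3 had -0.60 (-0.77 to -0.42) and -0.37 (-0.57 to -0.17).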

How the data were processed

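The authors' deposited matrices hold UMI counts per gene and nucleus, not normalized. Per the submitters' processing notes, Cell Ranger 7.1.0 and mm10 were used. Nuclei with at least 500 genes and at most 5% mitochondrial UMIs were kept, and doublets were removed with Scrublet, or, in both chow libraries, where it marked under 0.5%, as the highest scores at 0.8% per 1000 nuclei. Nuclei were clustered without the members, further replication genes and mitosis genes (scanpy 1.11.5, 3000 variable genes, 30 components, Leiden resolution 1) and named from marker lists. UMIs summed per class and library were tested with edgeR 4.0.16 (TMM, quasi-likelihood, Benjamini-Hochberg over all genes), with DESeq2 1.42.0, scalings, filters, clusterings and left-out libraries as alternatives. Contrasts of 1 library with 1 library carry exact 95% intervals for counting error only. The members and lists were chosen with earlier results of these data known. Values in every library are given for members past an adjusted p of 0.05 in any class and for the 10 with most UMIs in cardiomyocyte-like sums. Further genes are named only if they passed. The alternative that drops clusters over 90% YAP5SA uses the share of nuclei per arm. The tests were checked on simulated data. Some results are not reported here.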

Additional observations from a re-analysis of the deposited data

Results flagged for a closer look

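The YAP5SA effect was higher in fibroblast-like than in endothelial-like sums for 31 of the 42 members and lower for 0, by the test of the difference in edgeR at an adjusted p under 0.05, where it was higher for 4.85% and lower for 4.26% of all genes. It was higher in fibroblast-like than in cardiomyocyte-like sums for 5 members (Clspn, Fancd2, Neil3, Pola1 and Tyms), where it was higher for 4.76% and lower for 8.1% of all genes. It was higher in cardiomyocyte-like than in endothelial-like sums for 6 (Atad2, Brip1, E2f7, Hells, Pole and Rrm2), where it was higher for 5.58% and lower for 2.11% of all genes. The counts of members were 0 in the other direction. These fits share their libraries.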

How the results depend on the processing

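In fibroblast-like sums 4 to 19 members rose when 1 library was left out, of which 4 to 17 were among the 26 called with all libraries, and 0 rose without the clusters over 90% YAP5SA, where Exo1 (-0.35), Brip1 (-0.32) and Cdc6 (-0.00305) turned below 0 on the log2 scale. In cardiomyocyte-like sums 0 to 2 members rose when 1 library was left out, 2 with no filter on low counts, 1 with diet as a covariate and 15 without those clusters. Nothing is read from the 15 and the other values without those clusters, since leaving them out takes most YAP5SA nuclei and few control nuclei and raises the share of cycling cluster 10 more in YAP5SA than in control. In fibroblast-like sums it kept 14.03 and 20.1% of YAP5SA nuclei, against 91.5 and 92.6% of control nuclei. In cardiomyocyte-like sums Neil3 (1.42) and Pola1 (0.15) turned above 0. When 1 library was left out, log2 fold changes in cardiomyocyte-like sums ran from -0.26 to 0.69 for Prim2, from -0.22 to 0.25 for Tyms, from -0.037 to 0.76 for Hells and from -0.46 to 0.16 for Pola1. Prim2, Tyms and Hells were below 0 without the YAP5SA chow library, Tyms also without the control HFD library, and Pola1 was above 0 without the YAP5SA HFD library. In endothelial-like sums 4 to 9 members fell when 1 library was left out, 11 with no filter, 0 with stricter nucleus filters and 2 with cycle genes allowed in the clustering. In the sum of other nuclei 0 to 4 rose when 1 library was left out, 11 with no filter and 2 by DESeq2.

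Further replication genes that rose numbered 0 to 4 in cardiomyocyte-like sums when 1 library was left out, 2 with no filter and 18 without the clusters over 90% YAP5SA. In fibroblast-like sums they numbered 7 to 18 and, without those clusters, 0. In endothelial-like sums 0 to 3 fell, 7 with no filter, and 0 with diet as a covariate, by DESeq2, with stricter filters, with doublets kept or with cycle genes in the clustering. In other nuclei 0 to 2 rose, and 7 with no filter.

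Summed log2 ratios of YAP5SA over control in cardiomyocyte-like sums were 0.48 on chow and 0.58 on HFD without Pola1, and 0.73 and 1.49 without the clusters over 90% YAP5SA, where the HFD over chow ratio in YAP5SA reversed to 0.26. In fibroblast-like sums they were 0.88 and 1.20 without Pola1, 0.56 and 0.31 without those clusters, 0.76 on chow with doublets kept and 1.05 on HFD with stricter filters. In endothelial-like sums the chow ratio was 0.038 with stricter filters, a reversal, and -0.10 with cycle genes in the clustering, and the HFD ratio was -0.72 with stricter filters, -0.46 with doublets kept and -0.47 with cycle genes. In other nuclei chow gave 0.90 with stricter filters, 0.54 with cycle genes and 0.30 without unnamed clusters, and HFD gave 0.45 with doublets kept, 0.41 with cycle genes and 0.55 without unnamed clusters, where HFD over chow in YAP5SA reversed to 0.26.

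Log2 ratios of the share of nuclei with 3 or more members were, in cardiomyocyte-like nuclei on HFD, 0.58 at 1000 UMIs and 0.66 for at least 2 members. In fibroblast-like nuclei they were 0.80 on chow both at 4000 UMIs and for at least 2 members, and on HFD 1.78 at 1000 UMIs, 1.02 at 4000 UMIs, 0.995 for at least 2 and 1.95 for at least 5 members. In endothelial-like nuclei chow gave -0.94 at 1000 UMIs and -0.11 for at least 2 members, and HFD gave -0.86 at 1000 UMIs, -0.050 at 4000 UMIs and -0.94 for at least 5 members. In other nuclei stricter filters gave 0.89 on chow and 0.41 on HFD, at least 2 members 0.40 on HFD and cycle genes 0.41 on HFD.

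For each of these, other than the values without clusters over 90% YAP5SA, whose makeup changed as given above, the cause was not tested. No paired analysis was possible because the labels carry no replicate numbers. Diet, which pairs the libraries only if the titles hold, was fitted as a covariate, with 28 members rising in fibroblast-like sums (25 of the 26), 1 in cardiomyocyte-like sums 5 falling in endothelial-like sums and 0 called in other nuclei. The lone library of an arm is assumed to vary like the other arm when 1 is left out. Alternatives without unnamed clusters or without fibroblast-like clusters over 90% YAP5SA were chosen after seeing the data.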
